A study of Mus musculus with 6 samples.

Results

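The cytosolic ribosomal protein genes were described here in epithelial cells along the mouse colon. Members were chosen by symbol alone: names of the form Rpl or Rps followed by a number, with or without a closing a or x, together with Rplp0, Rplp1, Rplp2 and Rpsa. The rule took 76 of the 24346 gene entries, 46 of the large subunit and 30 of the small subunit. Ribosomal proteins whose genes carry other names, such as Fau and Rps3a1, fell outside the rule and are given with the related genes.

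Strand-specific libraries of polyadenylated RNA were sequenced to compare the epithelium of 3 stretches of colon: proximal, middle and distal. All 6 libraries came from wild-type, untreated C57BL/6J mice, an inbred laboratory strain, and the labels call the material primary cells. Each region had 1 male library (replicate 1) and 1 female library (replicate 2), numbered in order of deposition. The labels give neither the ages of the mice, nor their number per library, nor whether 1 mouse supplied several regions. The p-values therefore measure only the spread among 6 libraries, part of which may be technical.

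The cytosolic ribosome is built from a large subunit, which forms peptide bonds, and a small subunit, which reads the mRNA, and each holds ribosomal RNA and a set of proteins needed in about equal numbers. Most vertebrate ribosomal protein mRNAs start with a run of pyrimidines, the 5′ terminal oligopyrimidine (TOP) motif, which places their translation under the control of the growth kinase complex mTORC1. The colon epithelium renews itself from dividing crypt cells, and the production of ribosomes is one of the large costs of that growth.

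The start of the mRNA is the stretch that the TOP motif concerns, so the 60 bases from 40 before to 20 after the RefSeq start are shown for the 4 members with the largest and the 4 with the smallest fitted distal minus proximal difference among those with a mean of at least 100 FPKM, a fragment count scaled to transcript length and library size. The sequences are RefSeq's, build GRCm38.p6, written 5′ to 3′ on the gene's strand, and capitals mark any CTTTC. The first 4 lie at chr5:65391412-65391471 (minus strand), chr17:33824543-33824602 (minus), chrX:37085203-37085262 (minus) and chr4:86857348-86857407 (minus). The next 4 lie at chr2:26910767-26910826 (plus), chr11:101442205-101442264 (plus), chr17:24720023-24720082 (plus) and chr10:128626487-128626546 (minus).
Rpl9: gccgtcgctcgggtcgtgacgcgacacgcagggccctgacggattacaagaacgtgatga
Rps28: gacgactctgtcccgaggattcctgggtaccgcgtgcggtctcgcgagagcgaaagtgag
Rpl39: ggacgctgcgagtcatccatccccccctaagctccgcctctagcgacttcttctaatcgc
Rps6: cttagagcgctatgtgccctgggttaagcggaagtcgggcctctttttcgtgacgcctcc
Rpl7a: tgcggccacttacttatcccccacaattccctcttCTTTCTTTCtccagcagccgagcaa
Rpl27: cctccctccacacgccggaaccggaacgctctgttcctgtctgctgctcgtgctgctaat
Rps2: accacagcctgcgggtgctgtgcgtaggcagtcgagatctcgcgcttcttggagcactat
Rps26: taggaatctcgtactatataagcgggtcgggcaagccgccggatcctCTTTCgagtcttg
Of these 8, Rpl7a and Rps26 held CTTTC in the window. A promoter entry was matched by symbol for 56 of the 76 members. CTTTC, searched on the gene's strand in the 60 bases, was in 20 of the 56 members (35.7%) and in 8.69% of the 17191 entries of the files that had a promoter. CCGGAAG, searched on both strands in the whole 300 bases, was in 23 of the 56 members (41.1%) and in 12.8% of all entries. Among the 9033 promoters of genes kept for testing the shares were 8.33% for CTTTC and 20.9% for CCGGAAG. A match describes letters, not a working site. CTTTC is a fixed word, searched anywhere in the window, while a TOP motif is a pyrimidine run at the mRNA's start. The CTTTC counts are therefore not counts of TOP motifs. Rps6, for example, lacks CTTTC but has the pyrimidine run ctctttttc directly from the RefSeq start.

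The libraries were estimated to hold 7.83 to 9.94 M fragments, from the spacing of the lowest FPKM values. Total FPKM ran from 546269 in the male middle library to 612818 in the female middle library. The epithelial markers Epcam, Krt8, Krt18, Krt19, Krt20, Cdh1, Vil1 and Cldn7 summed to 8770 to 10387 FPKM. T cell markers summed to 38.5 FPKM (male) and 15.1 FPKM (female) proximally, against 3.29 to 7.88 FPKM elsewhere, and B and plasma cell markers summed to at most 1.32 FPKM in each library. Erythrocyte markers summed to 136, 117 and 130 FPKM in the male proximal, middle and distal libraries. In the female ones they summed to 38.8, 95.5 and 35.3 FPKM. The part of these cells in the results below was not tested.

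Ribosomal protein mRNAs made up 12.7% to 16.8% of all FPKM. The summed FPKM of the 76 genes, male before female, was 72995 and 83547 proximally, 69585 and 102801 in the middle colon, and 93681 and 98016 distally. As a share of total FPKM this was 12.7% and 14.6% proximally, 12.7% and 16.8% in the middle colon, and 15.8% and 16.2% distally, male first. The region means were 13.6% ± 1.37 (SD, n = 2) proximally, 14.8% ± 2.85 in the middle colon and 16.0% ± 0.288 distally. Both distal libraries lay above both proximal libraries, while the middle libraries held both the second lowest and the highest share. In a bulk library a larger share of this RNA cannot be told apart from more cells rich in it.

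**Figure D1:**
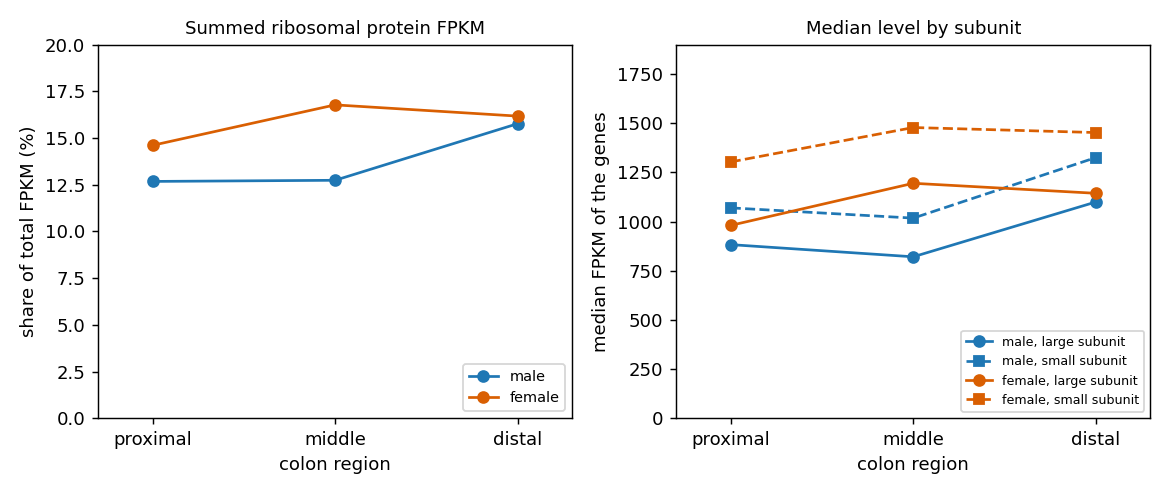
The left panel plots the share of total FPKM taken by the 76 ribosomal protein genes (y, %) by colon region (x), with 1 point per library and a line joining the libraries of a sex. The right panel plots the median FPKM of the large subunit genes (circles) and small subunit genes (squares) in the same libraries. The male line stays level from proximal to middle and then climbs to 15.8%, and the female line climbs to 16.8% in the middle colon.

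Some very abundant genes outside the family differed between the same libraries. Car1, a carbonic anhydrase of colonocytes, reached 19757 FPKM proximally in the male and 6685 FPKM proximally in the female, and was at 1965 to 3402 FPKM in the other 4 libraries. With Car1 and Lypd8, an antibacterial surface protein, left out of the total, the ribosomal protein share was 13.3%, 13.0% and 16.1% in the male proximal, middle and distal libraries and 15.0%, 17.1% and 16.6% in the female ones. With the 50 most abundant other entries left out it was 15.6%, 15.4% and 19.3% in the male and 17.7%, 20.7% and 19.9% in the female. Under both, the distal libraries stayed above the proximal ones.

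The balance between the subunits held steady. Large subunit genes took 7.25%, 7.23% and 9.03% of total FPKM in the male proximal, middle and distal libraries, and 8.28%, 9.56% and 9.23% in the female ones. Small subunit genes took 5.42%, 5.51% and 6.74% in the male and 6.33%, 7.21% and 6.95% in the female. The ratio of the sums, large over small, therefore stayed between 1.31 and 1.34 in all 6 libraries. Per gene the order was the opposite: the median small subunit gene was at 1018 to 1478 FPKM and the median large subunit gene at 821 to 1195 FPKM, so that the ratio of medians, large over small, was 0.752 to 0.830.

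Single members differed widely in level. The median member averaged 1087 FPKM, against 12.1 FPKM for the median of all kept genes, and 45 members averaged at least 1000 FPKM. In each library 37 to 46 of the 100 most abundant entries were members. Among the 71 members that averaged at least 100 FPKM, the highest mean was 31.0 times the lowest. FPKM is scaled to length, yet coding length, from 78 to 1260 bases, can still bear on the estimate of very short mRNAs: the 9 members under 300 bases had a median of 1179 FPKM and the others 1068 FPKM. Across the 76 genes the mean FPKM had a Spearman rho of -0.09 with coding length and -0.31 with transcript length. These are descriptions over genes that share the same 6 libraries.

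At the top of the large subunit stood Rpl41, which encodes the shortest of the proteins. Written male before female, it was at 2899 and 3112 FPKM proximally, 2771 and 4130.2 FPKM in the middle colon, and 3513 and 3532 FPKM distally; values below keep that order. Rplp1, an acidic protein of the stalk that recruits elongation factors, was at 2886 and 3069, at 2719.8 and 3915, and at 3536 and 3610.3 FPKM in the same order. For both genes the 2 distal libraries lay close together, above the proximal ones, and the 2 middle libraries were the lowest and the highest of all 6. Rpl38, needed in mouse embryos for translation of homeobox mRNAs, was at 1863 and 2098, at 1644 and 2592, and at 2376 and 2316 FPKM. Rpl28 followed with a mean of 2089 FPKM over the 6 libraries.

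In the small subunit Rps29, a zinc-binding protein of the head, was highest. It was at 2526 and 2773 FPKM proximally, 2384 and 3299.8 FPKM in the middle colon and 3136 and 3049.6 FPKM distally, male first. Rps26, which lines the exit of the mRNA channel, was at 2013 and 2061, at 1735 and 2516, and at 2222 and 2202 FPKM. Rps18 and Rps12 averaged 1985 and 1945 FPKM. In all 4 genes the male middle library was the lowest and the female middle library the highest of the 6. That order was common: the male middle library was the lowest for 64 of 76 members (15.5% of all kept genes) and the female middle library the highest for 59 (13.7% of all).

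At the low end, 5 members averaged under 100 FPKM: Rps27, Rpl26, Rpl30, Rpl34 and Rps15a. Above them came Rpl22, which binds small RNAs and has a close paralog, Rpl22l1, able to stand in for it. Rpl22 was at 84.4 and 106 FPKM proximally, 82.1 and 129 FPKM in the middle colon and 117 and 125 FPKM distally. Rpl15, at a mean of 337 FPKM, and Rps3, a protein of the mRNA entry channel with a mean of 439 FPKM, followed at some distance. Rpsa, which is also known as a laminin receptor precursor, was at 572 and 619.9, at 562 and 808, and at 732 and 755 FPKM. In all 4 genes both distal libraries exceeded both proximal ones.

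**Figure D2:**
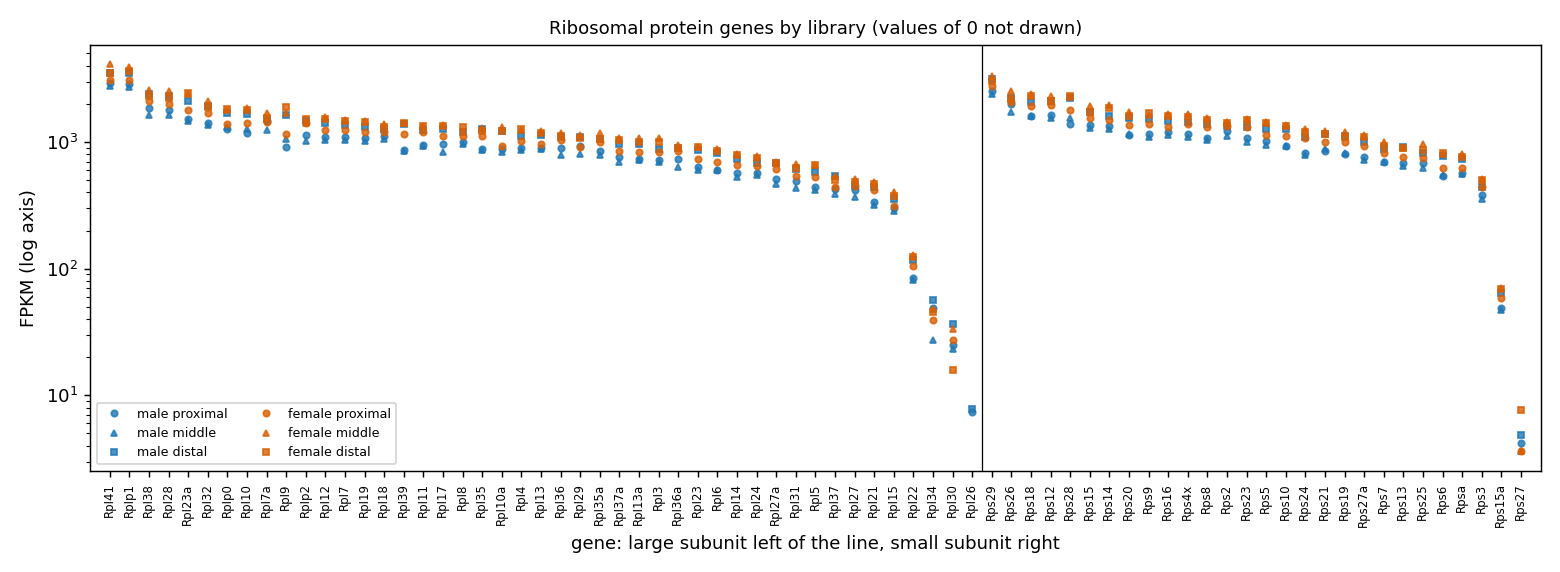
FPKM (y, log axis) of the members drawn in each of the 6 libraries, with genes ordered by mean level (x), large subunit left of the line and small subunit right. Colour gives the sex and the marker the region. Of the 76 genes 71 average at least 100 FPKM, and Rpl26, Rps27, Rpl30, Rpl34 and Rps15a lie below the rest.

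Of the 5 low members, 4 had a near-identical entry elsewhere in the genome that held nearly all of their shared FPKM. Coding sequences from GENCODE M21 (GRCm38, the same assembly as mm10) were compared with that annotation's transcripts of the gene entries in these data, matched by symbol. Entries of at least 95% identity over at least 95% of the coding sequence were taken. Genes and pseudogenes whose symbols these data lack were not searched. Such an entry was found for 13 members, with 14 entries in all, and it exceeded the member for Rps27, Rpl26, Rpl30 and Rpl34. Rps27 is at chr3:90212522-90213651 and Rpl26 at chr11:68901583-68906989. Rps27rt (chr9:114982366-114982739, annotated as protein coding) matches Rps27 in all 255 coding bases, and the first 90 are shown. Gm15772 (chr5:3236431-3236868) differs from Rpl26 at 2 of 438 bases, Gm12191 (chr11:49678710-49679057) from Rpl30 at 1 of 348, and Rpl34-ps1 (chr6:71124610-71124963) from Rpl34 at 2 of 354. These 3 are annotated as processed pseudogenes, and for each pair a stretch around 1 difference is shown, with the differing base in capitals.
Rps27: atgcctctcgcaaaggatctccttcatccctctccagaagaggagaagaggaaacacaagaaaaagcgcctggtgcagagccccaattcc
Rps27rt: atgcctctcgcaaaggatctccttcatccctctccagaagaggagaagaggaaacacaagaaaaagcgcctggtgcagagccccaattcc
Rpl26: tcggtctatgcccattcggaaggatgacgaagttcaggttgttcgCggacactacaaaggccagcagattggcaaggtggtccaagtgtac
Gm15772: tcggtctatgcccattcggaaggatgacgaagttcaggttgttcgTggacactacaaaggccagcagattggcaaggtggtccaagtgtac
Rpl30: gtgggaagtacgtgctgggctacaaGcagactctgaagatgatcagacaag
Gm12191: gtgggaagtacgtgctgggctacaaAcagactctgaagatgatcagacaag
Rpl34: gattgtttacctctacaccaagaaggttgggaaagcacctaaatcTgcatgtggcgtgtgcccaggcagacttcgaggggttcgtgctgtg
Rpl34-ps1: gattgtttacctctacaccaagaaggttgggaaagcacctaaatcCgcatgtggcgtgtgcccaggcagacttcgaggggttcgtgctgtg

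Rps27, a zinc-finger protein of the small subunit, was listed at 4.18 and 3.62 FPKM proximally, 3.61 and 3.63 FPKM in the middle colon and 4.85 and 7.72 FPKM distally. Reckoned by coding length, that was about 7.24 to 19.6 fragments per library. Rps27rt was at 2312 and 2649, at 2215 and 3361, and at 3106 and 3189 FPKM, which put 99.8% of the pair's FPKM on Rps27rt. The identical entry thus carried a level like that of the highest small subunit members. Rpl26, a protein beside the peptide exit tunnel, was listed at 7.41 FPKM in the male proximal and 7.87 FPKM in the male distal library and at 0 in the other 4. Gm15772 was at 1248 and 1509, at 1144 and 1810.4, and at 1538 and 1692 FPKM, or 99.8% of the pair.

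Rpl30, a small protein that binds its own transcript in yeast, was at 24.8 and 27.4, at 23.3 and 33.6, and at 36.6 and 15.8 FPKM. Gm12191 stood at 925 and 1041, at 830.3 and 1189.9, and at 1134 and 1077 FPKM, and held 97.5% of the pair. Rpl34 was at 49.0 and 39.0, at 27.3 and 48.2, and at 57.0 and 45.5 FPKM, while Rpl34-ps1 was at 988 and 1099, at 922 and 1357, and at 1238 and 1232 FPKM (96.3% of the pair). In the 3 pseudogene entries and in Rps27rt both distal libraries exceeded both proximal ones, as in most abundant members. How fragments that match several places were counted is not given in the sources used here, so the values of these 4 members, and their differences, are uncertain. Rps15a, at 47.5 to 70.7 FPKM, was different: the near-identical entries found for it, Rps15a-ps6 and Rps15a-ps4, averaged only 6.63 and 1.01 FPKM.

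**Figure D3:**
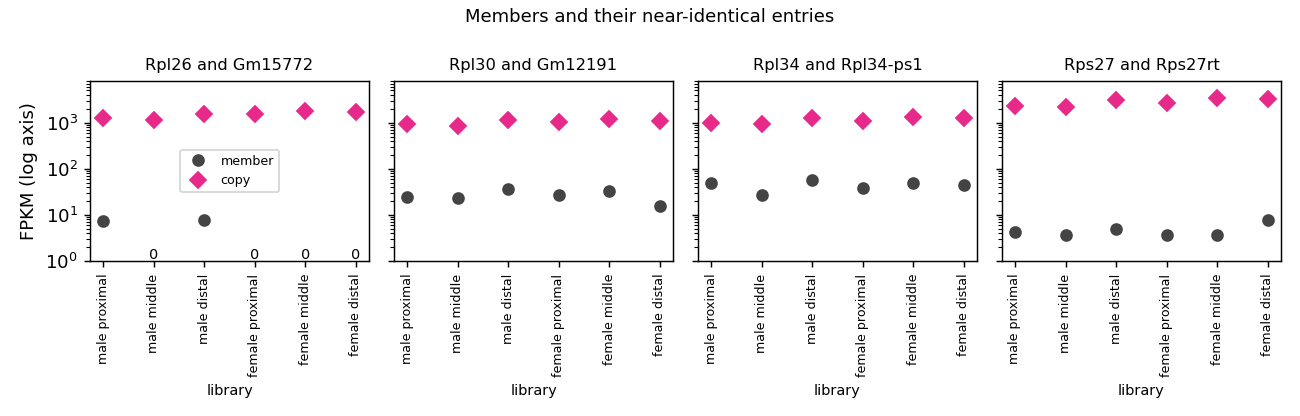
FPKM (y, log axis) of 4 members (grey circles) and of their near-identical entries (pink diamonds) in the 6 libraries (x), with members listed at 0 written as 0. The diamonds lie between 830.3 and 3361 FPKM, and the circles lie below 60 FPKM.

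Between the ends of the colon, ribosomal protein genes were higher distally as a group, with small differences. Rpl9 was the 1 member of 76 past the threshold (limma, Benjamini-Hochberg adjusted p under 0.05), and none was past it in the lower direction. Of all 11815 kept genes 14.1% passed, 6.47% higher and 7.64% lower, so the members' count lay below the background share. The fitted log2 difference was above 0 for 75 of 76 members (51.0% of all kept genes), the exception being Rpl30. For 72 of 76 members both distal libraries exceeded both proximal libraries, against 30.8% of all kept genes, and the 4 that overlapped were Rpl26, Rpl27, Rpl30 and Rpl34. The median member differed by 0.28 on the log2(FPKM + 1) scale, with 0.27 for the large and 0.30 for the small subunit, against 0.01 for all kept genes. At an unadjusted p under 0.05, limma called 4 members (Rpl9, Rps6, Rps28 and Rps27) and 29.2% of all kept genes. In simulated data for this comparison, 0.6% of genes of at least 100 FPKM that were changed by 0.3 on the log2 scale were recovered. The simulation changed 200 of 11815 genes, against 1668 called here. Fewer changed genes make the adjusted threshold stricter, so recovery in these data may be higher and was not measured.

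Rpl9, a large subunit protein encoded at chr5:65388364-65391444, stood apart from the rest. It was at 919 and 1149 FPKM proximally, 1052 and 1699 FPKM in the middle colon, and 1644 and 1882 FPKM distally. In both sexes it was lowest proximally and highest distally, and the regions' means were 1034 ± 162, 1375 ± 458 and 1763 ± 168 FPKM (SD, n = 2). From proximal to distal colon it rose by 0.78 in log2 units, with a standard error (SE) of 0.19 and a limma adjusted p of 0.0499. Against the median member of its own library, log2 Rpl9 stood 0.04 and 0.07 higher proximally and 0.28 and 0.41 higher in the middle colon. Distally it stood 0.44 and 0.60 higher. Rpl9 was singled out as the member with the largest fitted difference, so a rise against the median member follows from that choice. It gives the call no added support. The call lies at the threshold. It was lost without the male proximal (limma adjusted p = 0.127), male distal (0.441), female proximal (0.184) or female distal library (0.179), and without the replicate block, which here is the sex term (0.136).

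Rps28, Rpl39, Rps6 and Rpl23a had the next largest differences among the abundant members, and none passed the adjusted threshold. Rps28, a protein near the mRNA exit, was at 1395 and 1794 FPKM proximally, 1539 and 2277 FPKM in the middle colon and 2229 and 2307 FPKM distally, a log2 difference between the ends of 0.52 (SE 0.20, limma adjusted p = 0.154). Rpl39, which lines the peptide exit tunnel, was at 872 and 1158, at 843 and 1404, and at 1385 and 1408 FPKM (0.47, SE 0.21). For both genes the distal libraries were close to each other, and the female middle library lay between them. Rps6, the small subunit protein that S6 kinases phosphorylate downstream of mTORC1, was at 538 and 624, at 549 and 806, and at 773 and 825 FPKM (0.46, SE 0.16, limma adjusted p = 0.130). Rpl23a, at the tunnel exit where the signal recognition particle docks, was at 1527 and 1806, at 1478 and 2405, and at 2099 and 2438 FPKM (0.45, SE 0.20). In Rps6 and Rpl23a the male middle library sat with the proximal libraries and the female middle library with the distal ones.

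Rplp0, the base of the stalk that Rplp1 and Rplp2 complete, was at 1256 and 1388, at 1312 and 1803, and at 1709.8 and 1826 FPKM, with a log2 difference between the ends of 0.42 (SE 0.18). Rplp1 had 0.26 (SE 0.22) and Rplp2 0.24 (SE 0.17), from 1134 and 1419 FPKM proximally to 1473 and 1521 FPKM distally. No stalk gene passed the threshold, and the 3 were not tested against each other. Rpl10, a late-joining protein that completes the large subunit, was at 1188 and 1421, at 1258 and 1843, and at 1675 and 1790.2 FPKM (0.41, SE 0.18). Rpl3, close to the site of peptide bond formation, was at 725 and 839, at 695 and 1067, and at 880.4 and 998 FPKM (0.26, SE 0.17). Rpl22 had a difference of 0.35 (SE 0.15) and Rpsa 0.32 (SE 0.17), also short of the threshold.

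At the other end, 4 abundant members were close to level between proximal and distal colon. Rpl7a was at 1462 and 1428 FPKM proximally, 1250.3 and 1684 FPKM in the middle colon and 1517 and 1559.5 FPKM distally (log2 difference 0.09, SE 0.19). Rpl27 was at 421 and 453, at 371 and 510.3, and at 452 and 487 FPKM (0.10, SE 0.14), and its male distal value lay just under its female proximal one. Rps2, at the mRNA entry, was at 1223 and 1334, at 1111 and 1436, and at 1339 and 1414 FPKM (0.11, SE 0.16). For Rps26 the difference was 0.12 (SE 0.21). Their gaps between the regions were smaller than the gap between the 2 middle libraries. With quantile normalization, Rpl7a, Rps2 and Rps26 turned to -0.14, -0.11 and -0.091.

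The 41 members that no part of the naming rule took, 24 of the large and 17 of the small subunit, were more alike. The rule takes the highest and lowest levels and the largest and smallest differences, so this likeness follows from the choice. Their means ran from 409 FPKM (Rpl21) to 1731 FPKM (Rpl32) in the large subunit and from 783 FPKM (Rps25) to 1600.3 FPKM (Rps15) in the small subunit. Both distal libraries exceeded both proximal ones in all 41 (30.8% of all kept genes). The members that overlapped, Rpl26, Rpl27, Rpl30 and Rpl34, had all been taken by the naming rule, so this count follows from the choice too. The fitted log2 difference between the ends ran from 0.17 (Rpl18) to 0.43 (Rpl10a) in the large subunit, with a median of 0.28, and from 0.25 (Rps23) to 0.34 (Rps10) in the small subunit, with a median of 0.29. None of the 41 passed the threshold, since the rule took every member past it.

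The members lay on 19 chromosomes, 14 of them on chromosome 7 and 7 on chromosome 11.

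**Figure D4:**
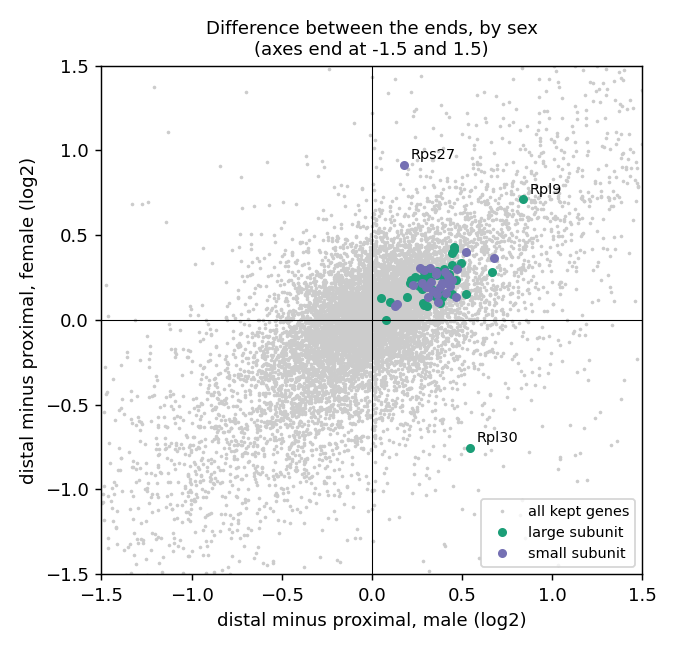
Each point is a gene, with the distal minus proximal log2 difference in the male libraries (x) and in the female libraries (y), for large subunit genes (green), small subunit genes (purple) and all kept genes (grey). The members gather above 0 on both axes, Rpl9 lies outside the cloud of members, and Rpl30 is below 0 in the female.

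Within each sex, in the FPKM as deposited, the distal library was higher than the proximal one for nearly all members. The male distal library exceeded the male proximal one for 76 of 76 members, with a median of 0.36 and quartiles of 0.29 and 0.43 on the log2 scale. The female distal library exceeded the proximal one for 74 members, with a median of 0.23, while Rpl30 was lower and Rpl26 was at 0 in both. The distal library was above the proximal one in both sexes for 74 of 76 members and 36.6% of all kept genes. With quantile normalization the male distal library was higher for 68 members and lower for 7, with a median of 0.14, and the female one was higher for 52 and lower for 20, with a median of 0.07. The fitted median over the sexes was then 0.10 in place of 0.28. Markers of cell types within the epithelium moved along the same axis. Rises and falls given here are limma calls (adjusted p under 0.05) between the ends, which 6.47% (higher) and 7.64% (lower) of all kept genes had. Cycling crypt cell markers summed to 327 and 351 FPKM proximally, 301 and 238 FPKM in the middle colon and 266 and 223 FPKM distally, and 4 of 12 fell between the ends (0 rose). Goblet cell markers summed to 4641 and 5712 FPKM proximally, 10018 and 14530 FPKM in the middle colon, where the female library was the highest of the 6, and 7102 and 8251 FPKM distally; 4 of 7 rose and 2 fell between the ends, with a median log2 difference of 1.1. Stem cell markers summed to 124 and 140 FPKM proximally and 94.5 and 93.4 FPKM distally, with Olfm4 at 0 in all 6 libraries, and 2 of 6 kept fell (0 rose). Surface colonocyte markers summed to 6871 and 9009 FPKM proximally, 8471 and 6879 FPKM in the middle colon and 5769 and 4154 FPKM distally, with 2 of 8 lower (0 higher), although their median log2 difference was 0.80. The part of these cells in the ribosomal protein values was not tested. Rn45s, the entry for the ribosomal RNA precursor, which the selection of polyadenylated RNA should largely remove, was at 598 and 419 FPKM proximally and 268 and 281 FPKM distally (log2 difference -0.86, SE 0.21, limma adjusted p = 0.052).

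The middle colon did not take a single place between the ends. Against proximal colon, 0 of 76 members passed the threshold (limma adjusted, 2.45% of all kept genes, 1.19% higher and 1.25% lower) and 0 were under an unadjusted p of 0.05 (18.3% of all). Neither did any member have both middle libraries above both proximal ones, which 21.6% of all kept genes had. The fitted difference was above 0 for 68 of 76 members (50.1% of all), with a median of 0.11 against 0.00 for all kept genes. By sex, the male middle library was below the male proximal one for 66 of 76 members, with a median of -0.074, and the female middle library was above the female proximal one for 75, with a median of 0.29. A lower value in the male with a higher value in the female was found for 65 of 76 members and 19.9% of all kept genes. With every library scaled to the same total FPKM, the male median turned to 0.0022, with 40 members above and 36 below 0. The fitted median ran from -0.10 without the female middle library to 0.33 without the male middle library, and was 0.030 with quantile normalization.

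Rpl9, Rps28, Rpl10 and Rplp0 had the largest fitted differences between middle and proximal colon, at 0.38, 0.24, 0.23 and 0.22, and none passed the threshold. In all 4 the male middle library was above the male proximal one, which held for 10 of the 76 members. The fitted difference averages the sexes, so a rise in the male follows in part from choosing the largest ones. Rplp2 was at 1027 FPKM in the male middle library, below its 1134 FPKM proximally, and at 1419 FPKM in both female libraries, a fitted difference of -0.07. Rps2 had -0.02.

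Between distal and middle colon, 0 of 76 members passed the threshold (limma adjusted, 0.499% of all kept genes, 0.11% higher and 0.389% lower) and 1, Rps27, was under an unadjusted p of 0.05 (12.7% of all). The fitted difference was above 0 for 75 of 76 members (51.6% of all), with a median of 0.19 against 0.01 for all. Both distal libraries exceeded both middle libraries for 2 members, Rplp2 and Rps27 (20.5% of all kept genes), and for 0 members were both below (19.1%). The fitted median joins unlike values in the sexes: the distal library exceeded the middle one for 76 of 76 members in the male, with a median of 0.43, while in the female it was lower for 63, with a median of -0.060. The mixed direction, higher in the male and lower in the female, was found for 63 of 76 members and 19.5% of all kept genes. It did not hold under quantile normalization, where the female median was 0, with 31 members higher, 37 lower and 8 equal, and the male median 0.20. That method gives every library the same ranked values, and many of the most abundant entries are members. It can therefore shrink a shift that the members share, so this setting cannot decide whether the mixed direction holds. The fitted median was -0.03 without the male middle library and 0.39 without the female middle library, and 0.086 with quantile normalization. Rpl9 and Rpl39 had the largest fitted differences among the abundant members, 0.40 and 0.36. Rpl41, Rps26 and Rpl7a were near 0, at 0.06, 0.08 and 0.08.

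**Figure D5:**
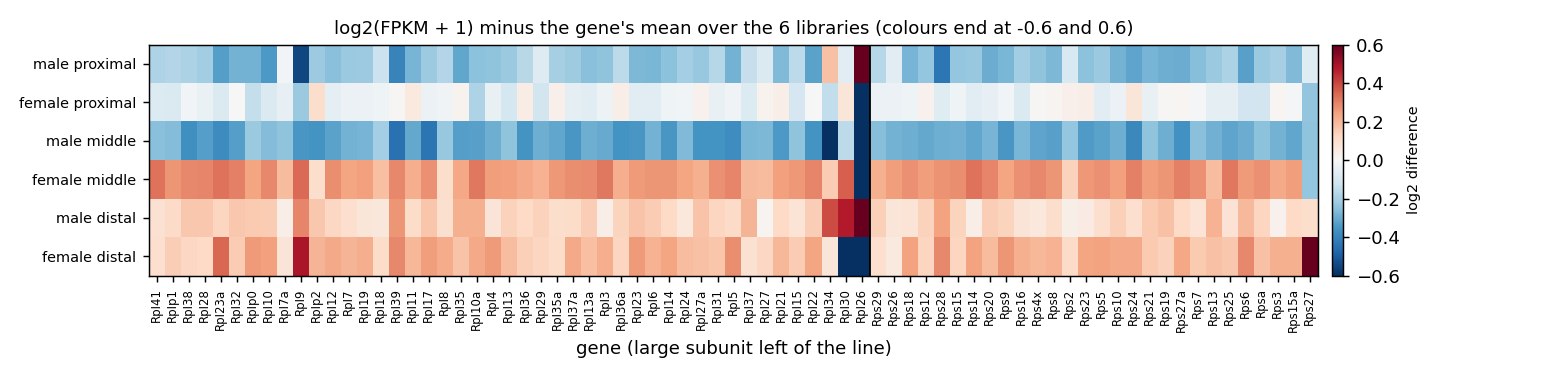
Colours give log2(FPKM + 1) of the members drawn (x) in each library (y) minus that member's mean over the 6 libraries, with red above and blue below the mean and colours ending at -0.6 and 0.6. The male proximal and male middle libraries are blue and the female middle and both distal libraries are red for most members, with the female proximal library in between.

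Ribosomal protein genes were at higher FPKM in the female than in the male libraries, by most in the middle colon. Over the 3 regions the fitted female minus male difference was above 0 for 74 of 76 members (50.1% of all kept genes), with a median of 0.28 against 0.00 for all. None passed the threshold (limma adjusted, 0.0423% of all kept genes, 0.00846% higher and 0.0339% lower), and 9 were under an unadjusted p of 0.05 (10.6% of all), namely Rpl26, Rpl22, Rps15a, Rpl5, Rps3, Rps24, Rpl9, Rps23 and Rpl21. Of these Rpl26 was lower in the female, listed at 0 in all 3 female libraries (-2.07), and the other 8 were higher. The median of 0.28 was 0.12 with quantile normalization and 0.14 without either middle library. The female library exceeded the male one in every region for 57 of 76 members (16.8% of all), and every female value exceeded every male value for 1 member, Rpl27 (4.0% of all). By region the median gap was 0.20 in the proximal colon (71 members higher in the female), 0.57 in the middle colon (75) and 0.08 in the distal colon (59). Each gap compares 1 library with 1 library, so sex and library cannot be told apart within a region. Over the 3 regions, replicate 1 was always male and replicate 2 always female, so sex cannot be told apart from replicate either. The estimated depth was 7.94, 7.86 and 7.83 M fragments in the male proximal, middle and distal libraries. In the female ones it was 8.93, 9.81 and 9.94 M, and its part was not tested.

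Rps24 and Rpl9 had the largest fitted gap, 0.40 for each. Rps24, one of the genes mutated in Diamond-Blackfan anaemia, was at 826 and 1081 FPKM proximally, 786 and 1270.3 FPKM in the middle colon and 1101 and 1205 FPKM distally. Rpl39 and Rpl23a each had 0.39. Rpl5, which with Rpl11 carries the small ribosomal RNA of the large subunit and can bind the p53 regulator Mdm2, was at 442 and 530.2, at 416 and 660.2, and at 583 and 653 FPKM, a gap of 0.36. The female library was the higher one in each region for Rps24, Rpl39, Rpl23a and Rpl5, and by far the most in the middle colon. Rpl37 had 0.14, from 426 and 443, 388 and 536, and 540.3 and 499.8 FPKM, with the male library higher distally. The 4 members on the X chromosome, Rpl10, Rpl36a, Rpl39 and Rps4x, had female minus male differences of 0.30, 0.26, 0.39 and 0.33, within the range of the other abundant members. For Rpl17 the gap was widest in the middle colon too, at 836 and 1372 FPKM.

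Ribosomal proteins and close relatives outside the naming rule had 0 calls in each comparison (limma adjusted, 10 kept of 13 in the files, 0 at an unadjusted p under 0.05 between the ends). Between the ends 14.1% of all kept genes passed, and 29.2% were under the unadjusted limit. Shares passing were 2.45% for middle against proximal, 0.499% for distal against middle and 0.0423% for female against male. Rps3a1 had a log2 difference between the ends of 0.38, from 923 and 1122 FPKM proximally to 1253 and 1406 FPKM distally, and Gnb2l1, the scaffold protein Rack1 of the small subunit, had 0.23. Fau, a fusion of a ubiquitin-like and a small subunit protein, was level at -0.01, with 1553 and 1512 FPKM proximally and 1508 and 1544 FPKM distally. Rpl39l, Rpl3l and Rpl10l, paralogs known from testis or muscle, were listed at 0 in all 6 libraries.

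Elongation factors and other mRNAs with a TOP motif had differences close to those of the members. Of 21 listed genes 0 passed between the ends (limma adjusted, 14.1% of all kept genes), and 6 were under an unadjusted p of 0.05 (29.2%). Distally 19 of the 21 were fitted higher (51.0% of all kept genes), with a list median of 0.25. The list medians were 0.07 for middle against proximal, 0.18 for distal against middle and 0.20 for female against male. Eef1a1, which brings aminoacyl-tRNA to the ribosome, was at 4004 and 4498, at 3802 and 5526, and at 4661 and 5374 FPKM. Tpt1, a TOP mRNA, was at 2142 and 2499, at 2116 and 2999, and at 2902 and 3303 FPKM (0.42, SE 0.19), and Eef2, the translocation factor, had 0.27. As for Rpl41 and Rplp1, the male middle library was the lowest of the 6 for Eef1a1 and Tpt1.

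The medians of the other parts of the translation machinery lay between -0.03 and 0.10. Among all kept genes 14.1% passed the adjusted limma threshold between the ends, and 29.2% were at an unadjusted p under 0.05. Initiation factors had 0 limma calls among 26 kept genes between the ends (4 at an unadjusted p under 0.05) and a median of 0.10, with Eif2s2 at 0.61 (limma adjusted p = 0.064). Ribosome biogenesis genes had a median of 0.00 over 45 kept genes: Tsr1, a factor of small subunit maturation, rose by 0.58 (limma adjusted p = 0.041), while Nop10, of the pseudouridylation particles, fell by 0.49 (0.026) and Taf1d, of the polymerase I initiation complex, fell by 0.47 (0.029). Mitochondrial ribosomal protein genes had a median of -0.02 over 77 kept genes. Among them Mrps6 rose by 1.05 (limma adjusted p = 0.016) and Mrps31 fell by 0.77 (0.021). Dedicated chaperones and importers had 0 calls of 11 with a median of 0.05, and ribosome quality control genes 0 of 11 with -0.03, each with 1 gene at an unadjusted p under 0.05 by limma.

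In the list of mTORC1 and growth control genes 2 rose and 2 fell of 19 (limma adjusted), with a median of 0.03. Among all kept genes 6.47% rose and 7.64% fell, and the list's counts were not tested against these shares. Myc, a transcription factor that promotes ribosome production, was at 29.6 and 31.5 FPKM proximally, 28.2 and 22.9 FPKM in the middle colon and 16.7 and 15.1 FPKM distally, and fell by 0.90 in log2 units, with an SE of 0.12 (limma adjusted p = 0.011). Its partner Max was at 63.8 and 92.9, at 115 and 131, and at 132 and 131 FPKM and rose by 0.76 (limma adjusted p = 0.028). Mycl rose by 0.72 (0.018), and Eif4ebp1, a translational repressor that mTORC1 phosphorylates, fell by 0.46 (0.049). Myc was lowest in the distal libraries, in which the ribosomal protein genes were above their proximal levels. None of the related lists had a call in the other 3 comparisons.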

How the data were processed

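The authors deposited 1 FPKM value per gene for each of 6 libraries. Their tools, by the submitters' processing notes, included Cuffdiff 2.2.1, TopHat2 2.1.1, SAMtools 0.1.18 and Bowtie2 2.2.8, with mm10; no source used here gives settings, annotation or the treatment of multiply matching fragments. FPKM calls for a model of log values. Genes of at least 1 FPKM in at least 2 libraries were kept (11815 of 24346, all 76 members among them). limma 3.58.1 in R 4.3.3 fitted log2(FPKM + 1) on region and sex, with a variance trend, 2 residual and 3.49 prior degrees of freedom, and Benjamini-Hochberg adjustment over all kept genes at 0.05. Differences on this scale understate changes of low genes. No region by sex test was run, since it would leave no residual degrees of freedom.

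The labels give 1 male and 1 female library per region; the sex term is the replicate block. Depth was estimated from values under 0.2 FPKM of genes with transcripts over 1500 bases, assuming fragments of 200 bases, and is approximate. Fragment counts were approximated from FPKM, that depth and the coding length, not the transcript length, so they are rough. Rpl15, for example, has 615 coding bases in a transcript of 1922. By this measure a member of at least 100 FPKM rests on at least about 249.8 fragments per library (median over all members 4432). A listed 0 may be an estimate that failed.

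Members, lists and the naming rule were chosen with earlier results of these data known. Named members are the 4 highest and 4 lowest per subunit, those past the threshold, the 5 largest and 5 smallest differences per comparison, 11 fixed names, those listed at 0 and the 6 with the widest gap within a region; of each related list, up to 4 genes, those past the threshold first. Some genes that this takes are not named here, nor drawn by name. Coding sequences were compared with blastn 2.17.0. The fit was tested on simulated data (10 draws, 11815 genes, 200 changed): for distal against proximal colon, at 100 FPKM or more, 0.6% of genes changed by 0.3 and 84.3% of those changed by 1 on the log2 scale were recovered, and 11.2% of calls were unchanged genes. Alternatives tried were quantile and other scalings, a pseudocount of 0.1, a filter at 5 FPKM or none, no variance trend, no replicate block and each library left out.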

Additional observations from a re-analysis of the deposited data

Results flagged for a closer look

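In the FPKM as deposited, the male and female medians had opposite signs around the middle colon. For distal minus middle, the 76 ribosomal protein genes had a median log2 difference of 0.43 between the male and -0.060 between the female libraries. For middle minus proximal the values were -0.074 (male) and 0.29 (female). The difference between the sexes was not tested, since each sex has 1 library per region. The male middle minus proximal value turned to 0.0022 with every library scaled to the same total FPKM, and to 0.0032 when scaled to the FPKM outside the family. The female distal minus middle value was 0 with quantile normalization, with 31 members higher and 37 lower. Quantile normalization can itself shrink a shift shared by many abundant genes.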

How the results depend on the processing

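For distal against proximal colon, the single ribosomal protein call (1 of 76) became 0 with a pseudocount of 0.1, no filter on low values, no replicate block, or near-identical copies added, and 0 to 1 with a library left out; the limma adjusted p of Rpl9 ran from 0.024 to 0.441. All genes called there went from 1668 to 0 with no filter and 340 to 1583 with a library left out. For middle against proximal they went from 289 to 0 with no filter, 187 without variance trend, 24 with no replicate block and 0 to 806 with a library left out; for distal against middle from 59 to 0, 29 and 17 under the same settings, 92 scaled to equal totals (this and the added copies were chosen after seeing the data) and 0 to 406 (members 0 to 1); for female against male from 5 to 1 with no filter and 2 to 25. With no replicate block no other call on a member changed. The distal minus proximal median of 0.28 was 0.10 with quantile normalization (large 0.11, small 0.089) and 0.14 (no male distal library) to 0.45 (no female distal library) with a library left out (large 0.13 to 0.45, small 0.14 to 0.45). The female minus male median of 0.28 was 0.12 with quantile normalization and 0.14 to 0.39 with a library left out. Quantile normalization turned Rpl7a to -0.14, Rps2 to -0.11 and Rps26 to -0.091; adding copies turned Rpl30 to 0.17; the cause was not tested. Leaving out a library gave -0.030 to 0.27 for Rps26, -0.77 to 0.84 for Rpl26, -0.044 to 0.22 for Rpl7a and -0.85 to 0.64 for Rpl30. Without the short or 0-listed members the shares were 10.7% and 13.2% in the male proximal and distal and 12.3% and 13.6% in the female ones; without the 50 most abundant other entries they were 15.6%, 19.3%, 17.7% and 19.9%, and 20.7% in the female middle library. With medians in place of sums the subunit ratio was 0.825, 0.807 and 0.830 in the male and 0.752, 0.808 and 0.787 in the female proximal, middle and distal libraries. Of single-gene values under alternatives, 321 kept direction and side, 8 lost the threshold and 10 turned. Fits with a library left out assume that the region's remaining library varies like the others. With about 7.24 to 19.6 fragments, reckoned by coding length, Rps27 supports no firm difference.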
